A study of Mus musculus with 84 samples.

Results

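The transcripts of 10 genes of the urea cycle and of ammonia handling were followed in the livers of diet-induced obese (DIO) mice that received BI 456906, a dual agonist of the glucagon receptor (GCGR) and the glucagon-like peptide-1 receptor (GLP-1R), or semaglutide, which acts on GLP-1R alone. The genes were chosen by name (Nags, Cps1, Slc25a15, Otc, Slc25a13, Ass1, Asl, Arg1, Glul and Rhbg), and each was found once among the 48794 Ensembl gene identifiers of the liver tables. All 10 were among the 15964 genes tested, that is, those left by a filter on low values. Ass1 is among the transcripts that the study itself picked from these livers, so its direction here is not independent evidence.

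The mice were C57BL/6J males on a 60% high-fat diet (D12492), housed singly, and 22 weeks old when treatment began. They were injected subcutaneously once a day over 30 days with vehicle, with BI 456906 at 4 dose levels (30, 20, 10 and 3 nmol/kg), or with semaglutide at a dose of 20 or 100 nmol/kg. All 7 groups, vehicle included, stayed on the diet, so no lean or untreated liver enters any comparison. Each group held 11 mice, and 6 liver libraries per group, 42 in all, were analysed. Liver was sequenced as whole tissue from males of a single strain, and a change in the RNA of a gene per cell cannot be told apart from a change in the share of the cells that express it. The labels do not state that each library is a separate mouse, and if some were not, the p-values would measure technical spread.

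The urea cycle converts ammonia, which is toxic to the brain, into urea for excretion, and in mammals the complete cycle runs only in the liver. It begins in the mitochondria of hepatocytes, mainly those around the portal vein, and ends in their cytosol. Ammonia that escapes it is taken up by a thin layer of hepatocytes around the central vein and fixed into glutamine. Glucagon is a classical inducer of the urea cycle enzymes and of amino acid breakdown in the liver, which is the reason for asking how a compound with GCGR activity differs from one without it.

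The libraries held 21676902 to 53869104 reads each (median 43179390), the fewest in library 77 of semaglutide 20 nmol/kg. The 6 markers of hepatocytes summed to between 65063 and 104230 TPM (transcript level per length and per library) in every library. The sum was 65063 to 77121 TPM for vehicle and 81357 to 96168 TPM at 30 nmol/kg of BI 456906, higher at that dose without overlap. Under semaglutide it was 73059 to 87148 TPM at 20 nmol/kg (median 80018) and 74017 to 104230 TPM at 100 nmol/kg (median 83859), against a median of 67306 TPM for vehicle. The part of this sum in the changes below was not tested. Of these 6 markers 4 rose at 30 nmol/kg, led by Tat, a tyrosine-degrading enzyme (log2 fold change 2.84), and 2 fell, including Cyp3a11 (-2.62). Markers of adipocytes summed to 42.4 to 181 TPM for vehicle and to 9.33 to 97.6 TPM at 30 nmol/kg, and those of cholangiocytes to 37.3 to 168 TPM and 16.97 to 57.4 TPM. At 100 nmol/kg of semaglutide the adipocyte sum was 22.88 to 140.5 TPM and the cholangiocyte sum 19.53 to 52.18 TPM. No marker of these lists was at 0 in all libraries of a group. The 5 lymphocyte markers never summed to more than 21.6 TPM.

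Levels are given below in TPM, which is scaled by transcript length and can be compared between genes, and changes as log2 fold changes with the standard error (SE). A gene passed when its false discovery rate (FDR) was at most 0.05 in limma/voom, adjusted over all 15964 genes. By mean TPM for vehicle, the order from high to low was Ass1 (2036 ± 337, SD, n = 6), Arg1 (956 ± 110), Glul (743 ± 81.3), Asl (709 ± 112), Cps1 (474 ± 110), Otc (188 ± 17.7), Slc25a13 (115 ± 5.45), Slc25a15 (93.8 ± 9.95), Nags (52.5 ± 1.85) and Rhbg (9.87 ± 2.18). Glul, Asl and Cps1 overlapped their neighbours, and the lowest Arg1 value for vehicle (866 TPM) lay beside the highest Glul value (862 TPM) and the highest Asl value (867 TPM). The 10 genes together took 0.538% of the TPM for vehicle (range 0.458 to 0.589%) and 1.06% at 30 nmol/kg of BI 456906 (1.01 to 1.10%), against 0.664% (0.482 to 0.771%) at 100 nmol/kg of semaglutide.

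**Figure D1:**
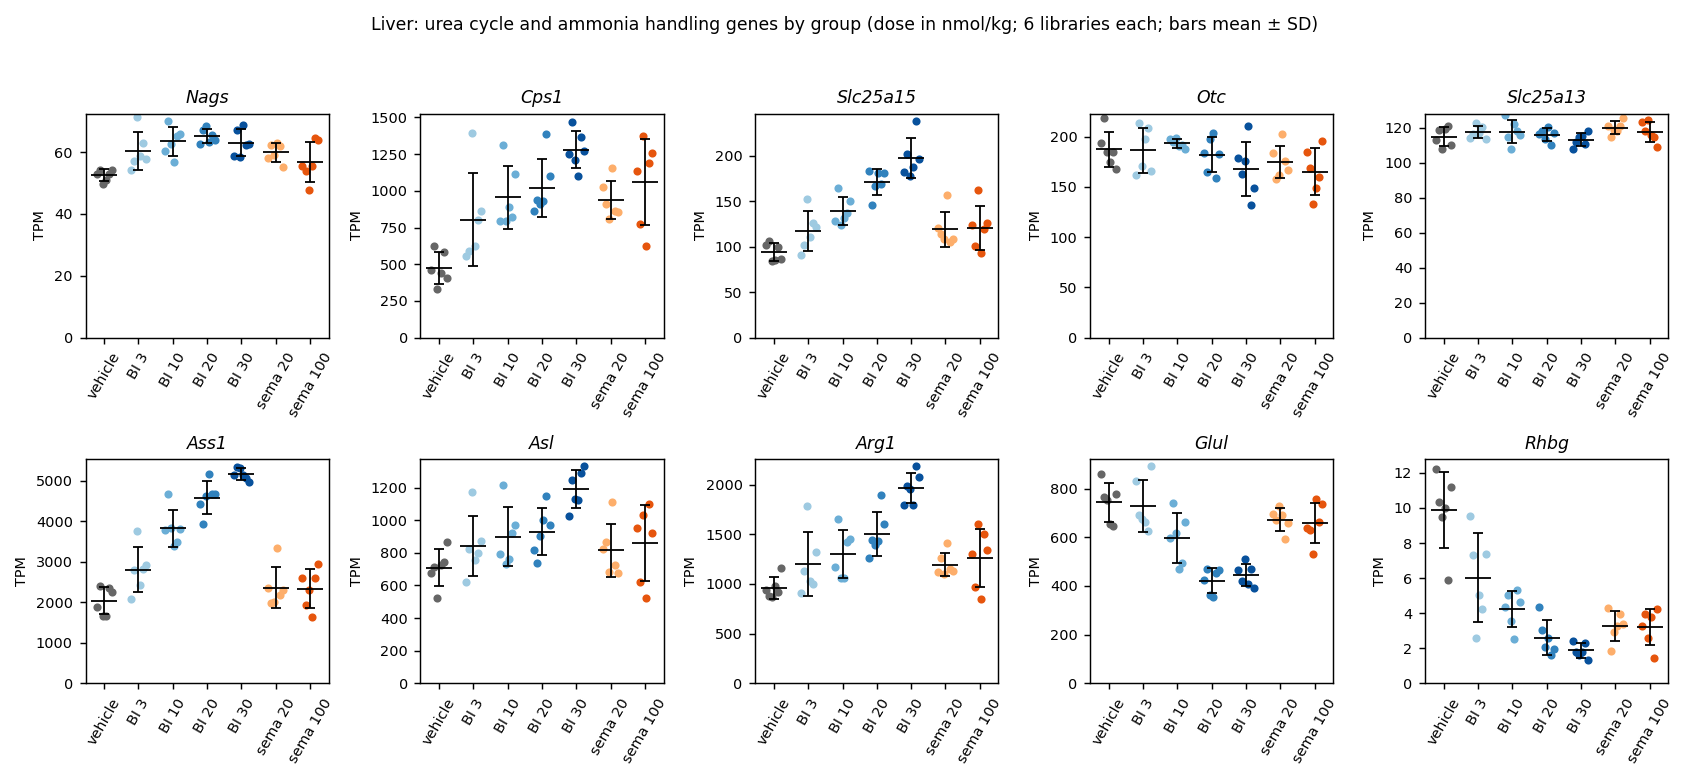
TPM of the 10 genes in each of the 42 liver libraries (points, y axis from 0), by group and dose in nmol/kg (x axis, BI for BI 456906 and sema for semaglutide), with the mean and SD of 6 libraries as black bars. Ass1 climbed from 1668 to 2403 TPM for vehicle to 4967 to 5342 TPM at 30 nmol/kg of BI 456906 and lay at 1649 to 3340 TPM under semaglutide, while Slc25a13 stayed between 108 and 127 TPM in every library.

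At 30 nmol/kg of BI 456906, 9 of the 10 genes passed against vehicle. Of these, 6 rose (Cps1, Ass1, Slc25a15, Arg1, Asl and Nags), 3 fell (Rhbg, Glul and Otc), and Slc25a13 did not pass. Of all genes tested 58.8% passed in this comparison, 28.9% as higher and 29.9% as lower, so the count by itself sets the members little apart and the sizes carry the description. With a log2 fold change of at least 1 in size added to the FDR, as in the methods of the study, 4 of 10 passed (Cps1, Ass1, Slc25a15 and Rhbg), against 12.9% of all genes. The TPM of the 6 treated and the 6 vehicle libraries did not overlap for 8 of 10 genes, against 29.4% of all genes. The median log2 fold change of the 10 genes was 0.46, and that of all genes tested was -0.03.

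The lower doses moved fewer of the genes. At 3 nmol/kg 2 of 10 passed (Cps1 and Rhbg), where 13.4% of all genes did. At 10 nmol/kg 5 of 10 passed, with Ass1, Slc25a15 and Glul added to these, against 37.5% of all genes. At 20 nmol/kg Arg1 and Nags joined, giving 7 of 10 against 45.9%. Asl and Otc passed at 30 nmol/kg, not at the lower doses of BI 456906. Under semaglutide the counts were 2 of 10 at 20 nmol/kg (Cps1 and Rhbg, against 46.5% of all genes) and 5 of 10 at 100 nmol/kg (Cps1, Slc25a15, Rhbg, Glul and Otc, against 48.2%). All these comparisons share the same 6 vehicle libraries.

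The linear slope over vehicle and the 4 doses of BI 456906 passed for 9 of 10 genes, all but Slc25a13, and for 58.9% of all genes. Per 10 nmol/kg, the log2 level rose by 0.39 (SE 0.04) for Ass1, 0.37 (SE 0.06) for Cps1, 0.32 (SE 0.03) for Slc25a15, 0.29 (SE 0.04) for Arg1, 0.21 (SE 0.05) for Asl and 0.05 (SE 0.02) for Nags. It fell by 0.75 (SE 0.09) for Rhbg, by 0.32 (SE 0.03) for Glul and by 0.08 (SE 0.03) for Otc. The slopes of Nags and Otc did not pass over the 4 doses without vehicle (0.02, FDR 0.565, and -0.07, FDR 0.0824). That of Nags was also lost with library size alone (FDR 0.165), with no filter (FDR 0.0605) and without any 1 of libraries 45, 46, 49, 68, 70 and 72 (FDR up to 0.0824), and that of Otc on log2(TPM + 1) (FDR 0.0895) and without library 71 (-0.05, FDR 0.107). With library size alone Slc25a13 passed (-0.05, FDR 0.00113). Neighbouring doses were harder to tell apart. Between 20 and 10 nmol/kg 1 of 10 genes passed, Glul (log2 difference -0.49, SE 0.10, limma/voom FDR 0.0449), where 0.0814% of all genes did. That call was lost when any 1 of libraries 55, 56, 57 and 60 (10 nmol/kg) or 61, 63 and 64 (20 nmol/kg) was left out, with FDRs up to 0.119. Between 10 and 3 nmol/kg 0 of 10 genes passed in limma/voom (2 at an unadjusted p under 0.05, Ass1 and Glul; 0.796% of all genes passed; no other tool was run on this step). On this step Ass1 passed without library 51 (0.50, FDR 0.0428) and Glul without library 53 (FDR 0.0326) or 55 (FDR 0.0461). Between 30 and 20 nmol/kg 0 of 10 passed in limma/voom as well (2 at an unadjusted p under 0.05, Arg1 and Asl; 5.86% of all genes passed; 0 by edgeR and 0 by DESeq2), and Arg1 passed without library 65 (0.51, FDR 0.0258).

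**Figure D2:**
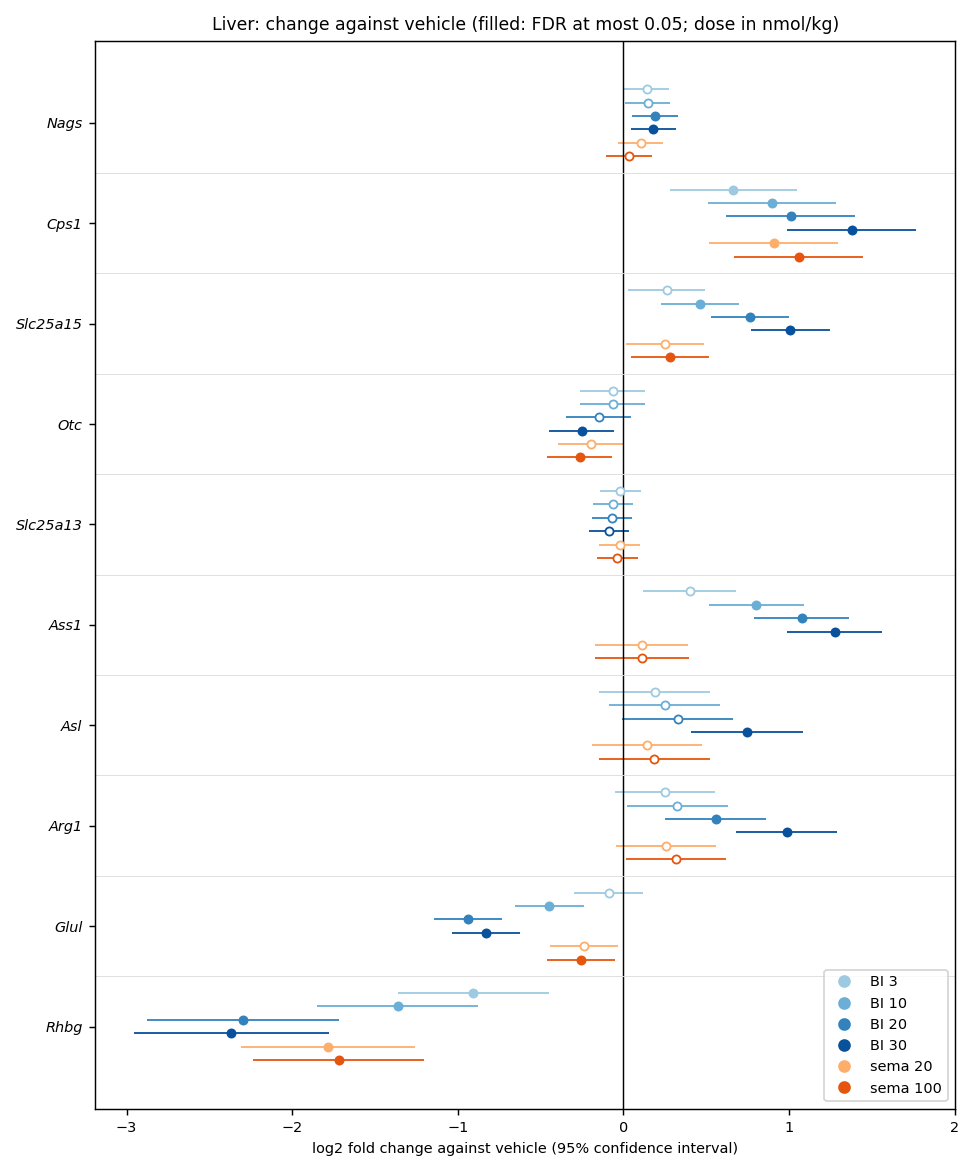
Log2 fold change against vehicle of each gene (rows) in limma/voom at 4 doses of BI 456906 (blue) and 2 of semaglutide (orange), with the 95% confidence interval as lines and filled points for an FDR of at most 0.05. Cps1 lies to the right of 0 and Rhbg to the left in all 6 treated groups, whereas Ass1 lies at 0.11 under both doses of semaglutide and at 1.28 at 30 nmol/kg of BI 456906.

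Nags (ENSMUSG00000048217, chromosome 11, 102145513 to 102149477, plus strand, GRCm38) encodes the enzyme that makes N-acetylglutamate, without which Cps1 is inactive. Its TPM for vehicle ran from 49.6 to 54.3 (median 53.1), at 20 nmol/kg of BI 456906 from 62.6 to 68.4 (median 64.8) and at 30 nmol/kg from 58.6 to 68.95 (median 62.5). Neither treated group overlapped vehicle, and the step was small, at 0.19 (SE 0.07, FDR 0.0205) and 0.18 (SE 0.07, FDR 0.0216) on the log2 scale in limma/voom. The libraries at 3 nmol/kg (54.36 to 71.3 TPM) and 10 nmol/kg (56.7 to 70.15 TPM) also lay above vehicle, the former barely, without passing. At 20 nmol/kg of semaglutide Nags was at 55.2 to 62.98 TPM, likewise above every vehicle library. At 100 nmol/kg of semaglutide it ranged from 47.7 to 64.5 TPM and overlapped vehicle. Nags did not pass at either dose of semaglutide. With library size alone as the scaling, the rise at 30 nmol/kg was 0.12 and no longer passed (FDR 0.0957). Without vehicle library 45 neither rise passed (FDR 0.0507 at 20 nmol/kg and 0.0543 at 30 nmol/kg), and without library 68 of the 30 nmol/kg group that dose did not (FDR 0.0512).

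Cps1 (ENSMUSG00000025991, chromosome 1, 67123026 to 67231259, plus strand) encodes carbamoyl phosphate synthetase, which captures ammonia in the mitochondrial matrix and sets the pace of the cycle. For vehicle its TPM had a lowest value of 331, a median of 450.1 and a highest value of 623. At 30 nmol/kg of BI 456906 the corresponding values were 1104, 1260 and 1470, and at 100 nmol/kg of semaglutide 622, 1163 and 1371. The BI 456906 libraries at 30 nmol/kg stood clear of vehicle, and 1 library of semaglutide 100 nmol/kg fell just below the highest of vehicle. Those of semaglutide 20 nmol/kg, at 811 to 1157 TPM, also stood clear of vehicle. Those of BI 456906 3 nmol/kg, at 557 to 1396 TPM, overlapped it. In limma/voom Cps1 rose by 0.66 (SE 0.19, FDR 0.0178), 0.90, 1.01 and 1.38 (SE 0.19, FDR 1.33e-07) at the 4 rising doses of BI 456906, and by 0.91 (SE 0.19, FDR 0.000187) and 1.06 (SE 0.19, FDR 2.34e-05) at the 2 doses of semaglutide. The rise at 3 nmol/kg rested on few libraries. It was 0.49 (FDR 0.1003) without the library numbered 51, the highest of its group at 1396 TPM, and 0.56 (FDR 0.0668) without vehicle library 45.

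Slc25a15 (ENSMUSG00000031482, chromosome 8, 22375551 to 22398597, minus strand) encodes the carrier that brings ornithine into the mitochondria and takes citrulline out. Its TPM for vehicle was 84.3 to 107 (median 93.0), and it was 146 to 183 (median 175) at 20 nmol/kg and 178 to 239 (median 192) at 30 nmol/kg of BI 456906. Both dose groups lay wholly above vehicle. The log2 fold changes were 0.46 (SE 0.12, FDR 0.0018), 0.77 (SE 0.12, FDR 1.41e-06) and 1.01 (SE 0.12, FDR 3.59e-09) for 10, 20 and 30 nmol/kg. Under semaglutide the libraries ranged from 92.5 to 162 TPM, with changes of 0.25 (FDR 0.0748) at 20 nmol/kg and 0.28 (FDR 0.0429) at 100 nmol/kg, and the latter was lost without any 1 of vehicle libraries 45 and 46 or semaglutide libraries 79, 81, 83 and 84 (FDR up to 0.175). The change at 20 nmol/kg of semaglutide passed without vehicle library 44 (0.29, FDR 0.0489) or 47 (0.29, FDR 0.0443).

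Otc (ENSMUSG00000031173, chromosome X, 10252305 to 10321024, plus strand) encodes ornithine transcarbamylase, which joins carbamoyl phosphate and ornithine into citrulline, and is the enzyme most often affected in inherited defects of the cycle. It did not rise with Cps1 and Ass1. Its TPM was 168 to 219 (median 185) for vehicle, 133 to 210.3 (median 169) at 30 nmol/kg of BI 456906 and 133 to 196 (median 164) at 100 nmol/kg of semaglutide, with wide overlap. The falls of 0.25 (SE 0.10, FDR 0.0256) and 0.26 (SE 0.10, FDR 0.0243) on the log2 scale passed in limma/voom but not when TPM was tested (FDR 0.125 and 0.0945 with a pseudocount of 1). Without library 71 of the 30 nmol/kg group the first was -0.16 (FDR 0.142), and it was also lost without library 72 or vehicle library 44 or 47. The other was lost without vehicle library 44 or semaglutide library 81 or 82 (FDR up to 0.0876).

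Slc25a13 (ENSMUSG00000015112, chromosome 6, 6041218 to 6217173, minus strand) encodes citrin, the carrier that supplies mitochondrial aspartate to the cytosol. Its 42 values lay between 108 and 127 TPM. Its log2 fold changes against vehicle ran from -0.09 to -0.02 over the 6 treated groups, and the 95% confidence interval at 30 nmol/kg of BI 456906 was -0.21 to 0.03. With library size alone as the scaling it passed as lower at 30 nmol/kg (-0.15, FDR 0.00198).

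Ass1 (ENSMUSG00000076441, chromosome 2, 31470207 to 31520672, plus strand) encodes argininosuccinate synthetase, which condenses citrulline with aspartate in the cytosol. Its lowest, median and highest TPM were 1668, 2066 and 2403 for vehicle, 3379, 3785 and 4678 at 10 nmol/kg of BI 456906, 3929, 4650 and 5159 at 20 nmol/kg, and 4967, 5133 and 5342 at 30 nmol/kg. Every library from 10 nmol/kg upwards was above every vehicle library, and the 6 libraries at 30 nmol/kg spread over less than those of any other group (SD 144 TPM, against 337 to 557 TPM elsewhere). The log2 fold changes were 0.40 (SE 0.14, FDR 0.0508), 0.80 (SE 0.14, FDR 2.4e-05), 1.08 (SE 0.14, FDR 1.00e-07) and 1.28 (SE 0.14, FDR 1.31e-09), from the lowest dose to the highest. The value at 3 nmol/kg just missed the threshold and passed without any 1 of vehicle libraries 44, 47 and 48 or treated libraries 49 and 52 (FDR 0.0149 to 0.0430). Semaglutide left Ass1 at 1988, 2246 and 3340 TPM (lowest, median and highest at 20 nmol/kg) and at 1649, 2441 and 2950 TPM at 100 nmol/kg, and both changes were 0.11 (95% confidence interval -0.17 to 0.39). With sample quality weights, the change at 100 nmol/kg was 0.29 and passed (FDR 0.0454).

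Reads of Ass1 can be shared with Gm5424, a processed pseudogene copied from it on chromosome 10 (62071123 to 62072362). Gm5424 held 0.508 to 0.773% as many reads as Ass1 (median 0.623%, n = 42), and its log2 fold change was 1.26 at 30 nmol/kg of BI 456906 and 0.02 at 100 nmol/kg of semaglutide.

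Asl (ENSMUSG00000025533, chromosome 5, 130011258 to 130029247, minus strand) encodes argininosuccinate lyase, which splits off fumarate and leaves arginine. Its TPM was 521 to 867 (median 722) for vehicle, 741 to 1151 (median 934) at 20 nmol/kg of BI 456906 and 1027 to 1333 (median 1189) at 30 nmol/kg. Only the highest dose cleared the vehicle range. The change there was 0.74 (SE 0.17, FDR 0.000229), after 0.33 (SE 0.17, FDR 0.105) at 20 nmol/kg. Under semaglutide the libraries ranged from 525 to 1111 TPM and the changes of 0.14 and 0.19 did not pass.

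Arg1 (ENSMUSG00000019987, chromosome 10, 24915221 to 24927484, minus strand) encodes arginase, which releases urea and returns ornithine to the cycle. Its lowest, median and highest TPM were 866, 926 and 1164 for vehicle, 1259, 1437 and 1895 at 20 nmol/kg of BI 456906, and 1797, 1968 and 2187 at 30 nmol/kg. Both doses stood clear of vehicle. Arg1 rose by 0.56 (SE 0.15, FDR 0.0024) and 0.99 (SE 0.15, FDR 7.11e-07). At 100 nmol/kg of semaglutide the values were 851, 1324 and 1600 TPM and the change of 0.32 (SE 0.15, FDR 0.0785) did not pass, though it did in DESeq2 (FDR 0.0493), on log2(TPM + 1) (FDR 0.0301), with sample quality weights (FDR 0.0109) and without vehicle library 48 or either of libraries 80 and 82 of that group (FDR 0.0126 to 0.0411).

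Glul (ENSMUSG00000026473, chromosome 1, 153899944 to 153909723, plus strand) encodes glutamine synthetase, the enzyme of the pericentral hepatocytes that fixes residual ammonia. It fell under BI 456906. Its lowest, median and highest TPM were 647, 759 and 862 for vehicle, 471, 607 and 742 at 10 nmol/kg of BI 456906, 355, 438 and 470.2 at 20 nmol/kg, and 392, 441 and 512 at 30 nmol/kg. At 20 and 30 nmol/kg all 12 libraries lay below all 6 of vehicle. The log2 fold changes were -0.09 (SE 0.10, FDR 0.610), -0.45 (SE 0.10, FDR 0.000646), -0.94 (SE 0.10, FDR 3.39e-09) and -0.83 (SE 0.10, FDR 8.1e-09), from the lowest dose to the highest. The difference between the 20 and 30 nmol/kg groups did not pass (0.10, 95% confidence interval -0.10 to 0.31). Under semaglutide Glul ranged from 530.1 to 756 TPM, with changes of -0.24 (FDR 0.0544) and -0.26 (FDR 0.0376), the latter lost without any 1 of vehicle libraries 43, 44, 45 and 48 or semaglutide libraries 79, 80, 81 and 83 (FDR up to 0.119). The change at 20 nmol/kg of semaglutide passed without vehicle library 46 (-0.28, FDR 0.0260).

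Rhbg (ENSMUSG00000104445, chromosome 3, 88242874 to 88254709, minus strand) encodes an ammonia channel of the Rhesus family found on the same pericentral hepatocytes. It was the least abundant of the 10, with 19 to 190 reads per library. Its TPM was 5.88 to 12.2 (median 10.2) for vehicle, 2.59 to 9.55 (median 6.17) at 3 nmol/kg of BI 456906, 1.35 to 2.43 (median 1.79) at 30 nmol/kg and 1.47 to 4.23 (median 3.52) at 100 nmol/kg of semaglutide. Every library of the groups from 10 nmol/kg of BI 456906 upwards and of both semaglutide groups lay below every vehicle library. The log2 fold changes of Rhbg in limma/voom were -0.91 (SE 0.22, FDR 0.00742), -1.36, -2.30 and -2.37 (SE 0.29, FDR 9.32e-09) over the 4 rising doses of BI 456906, and -1.78 (SE 0.26, FDR 8.08e-07) and -1.72 (SE 0.26, FDR 1.14e-06) under semaglutide.

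The compounds were given at a matched dose only at 20 nmol/kg, and the match is in nmol/kg alone. The study lists higher plasma levels of the dual agonist than of semaglutide at this dose late in treatment. It also describes a lower potency of the dual agonist at the receptor that both share. The part of exposure, potency and weight loss in the differences below was not tested. At 20 nmol/kg 3 of the 10 genes differed, Ass1, Slc25a15 and Glul, where 2.42% of all genes did. Ass1 was higher with BI 456906 by 0.96 (SE 0.14, FDR 5.00e-05), Slc25a15 was higher by 0.52 (SE 0.12, FDR 0.00966), and Glul was lower (-0.70, SE 0.10, FDR 3.43e-05), on the log2 scale in limma/voom. The TPM of the 2 groups did not overlap for 2 of the 10, Ass1 (3929 to 5159 against 1988 to 3340) and Glul (355 to 470.2 against 592 to 729), against 1.69% of all genes. All 3 calls held when any 1 of the 12 libraries was left out. None of the 3 reached a log2 difference of 1.

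For the other 7 genes no difference at 20 nmol/kg passed, and the intervals say how large a difference could have been missed. The 95% confidence interval of BI 456906 minus semaglutide was -0.29 to 0.50 for Cps1, -1.18 to 0.16 for Rhbg, -0.01 to 0.61 for Arg1, -0.15 to 0.52 for Asl, -0.05 to 0.22 for Nags, -0.15 to 0.24 for Otc and -0.17 to 0.07 for Slc25a13. Cps1, at 863 to 1390 TPM with BI 456906 and 811 to 1157 TPM with semaglutide, and Rhbg, at 1.60 to 4.33 and 1.83 to 4.29 TPM, overlapped widely.

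The top doses of the 2 compounds differ (30 nmol/kg of BI 456906, 100 nmol/kg of semaglutide), and the values are given side by side. In all, 5 of 10 genes differed between these groups, against 9.75% of all genes: Ass1 (log2 difference 1.16, SE 0.14, FDR 3.82e-07), Slc25a15 (0.73, SE 0.12, FDR 6.87e-05), Arg1 (0.67, SE 0.15, FDR 0.00334), Asl (0.56, SE 0.17, FDR 0.0283) and Glul (-0.58, SE 0.10, FDR 0.000175). The Asl difference was lost without any 1 of BI 456906 libraries 68 and 72 or semaglutide libraries 80 and 82, most so without 82 (0.41, FDR 0.0997). These 5 genes also differed between 30 nmol/kg of BI 456906 and 20 nmol/kg of semaglutide, against 13.6% of all genes. The 2 doses of semaglutide differed in 0 of 10 genes and in 0% of all genes tested by limma/voom, with 0 of 10 and 482 of 15964 genes at an unadjusted p under 0.05, and edgeR and DESeq2 called 0 of the 10.

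**Figure D3:**
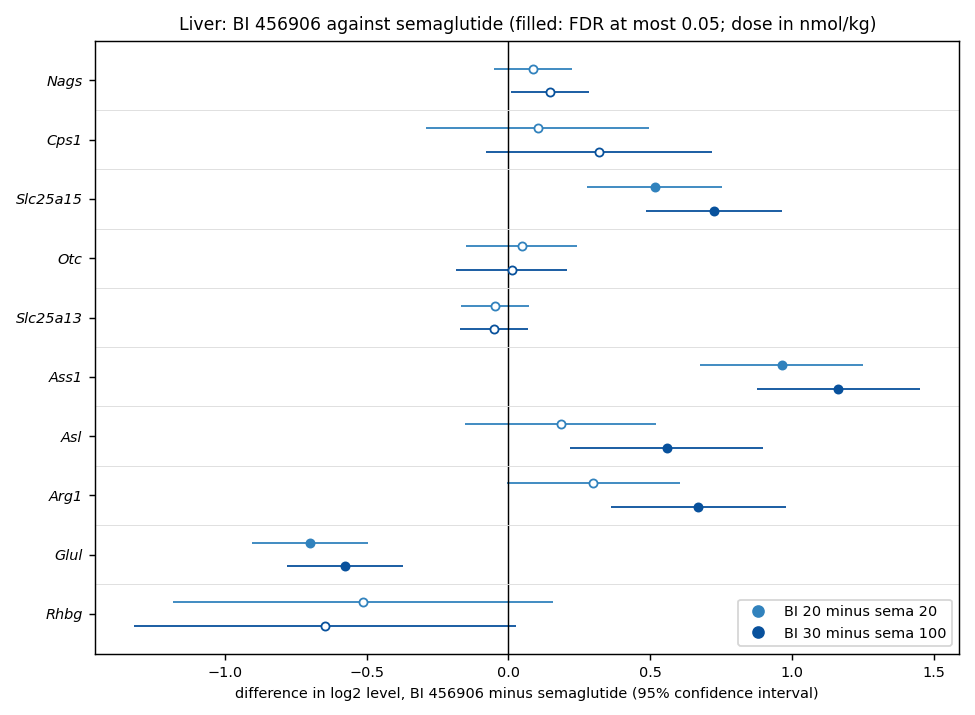
Log2 difference between BI 456906 and semaglutide for each gene (rows) at the matched dose of 20 nmol/kg (lighter blue) and between 30 nmol/kg of BI 456906 and 100 nmol/kg of semaglutide (darker blue), with 95% confidence intervals and filled points for an FDR of at most 0.05. Ass1 and Slc25a15 lie to the right and Glul to the left in both comparisons, and the intervals of Cps1, Otc, Slc25a13 and Rhbg include 0 in both.

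The sequences before the starts of the 3 genes that differed between the compounds at the matched dose (Ass1, Slc25a15 and Glul) are shown. They come from RefSeq (build GRCm38.p6), which gave a window for 6 of the 10 genes. Arg1 and Asl, which differed between the compounds at their top doses, were not among those 6. Each window is the 250 bases before the start, read 5′ to 3′ on the strand of the gene. The window of Ass1 is shown up to the base before the annotated gene, which begins 63 bases earlier than the RefSeq start, and of the windows given for Slc25a15 the one outside the gene is shown. Capitals mark matches to 6 motifs searched on both strands.

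Ass1, chr2:31470020-31470206, plus strand: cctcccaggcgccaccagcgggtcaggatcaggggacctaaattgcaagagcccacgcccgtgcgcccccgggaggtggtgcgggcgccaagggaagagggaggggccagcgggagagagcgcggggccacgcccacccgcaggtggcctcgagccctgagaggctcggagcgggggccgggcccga

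Slc25a15, chr8:22398622-22398871, minus strand: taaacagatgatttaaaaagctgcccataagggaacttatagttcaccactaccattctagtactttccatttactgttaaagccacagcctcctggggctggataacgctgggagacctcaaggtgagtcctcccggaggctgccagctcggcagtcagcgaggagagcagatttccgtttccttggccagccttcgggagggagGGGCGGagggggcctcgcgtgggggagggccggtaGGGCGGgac

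Glul, chr1:153899679-153899928, plus strand: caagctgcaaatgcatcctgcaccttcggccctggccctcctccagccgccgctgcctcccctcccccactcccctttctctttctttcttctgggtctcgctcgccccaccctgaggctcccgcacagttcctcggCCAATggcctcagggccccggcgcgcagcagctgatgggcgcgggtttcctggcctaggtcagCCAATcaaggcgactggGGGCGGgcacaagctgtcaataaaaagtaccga

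The motifs were the cAMP response element TGACGTCA (in 1.55% of the 32851 mouse windows of that length), its shorter form TGACG, which lies within the full element (17.8%), the C/EBP site TTGCNNAA (9.56%), the HNF4 site AGGNCAAAG (1.80%), the GC box GGGCGG (32.7%) and the CCAAT box CCAAT (33.8%). The first 4 sets of letters are in none of the 3 windows. The GC box was found once for Ass1, beginning at position -63 from the RefSeq start, just after the bases shown, at -44 and -9 for Slc25a15 and at -33 for Glul. The CCAAT box was found at -113 and -50 for Glul only. A match describes letters in a window and does not mark a bound site.

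Genes around the cycle were described by lists of known function that hold no member. Of all genes tested, 28.9% passed as higher and 29.9% as lower at 30 nmol/kg of BI 456906, and the counts of every list stand beside those shares. Of 11 genes whose products release ammonia or nitrogen from amino acids, 8 rose and 2 fell at 30 nmol/kg of BI 456906, with a median log2 fold change of 0.58. The largest rises were those of Sds, serine dehydratase (2.03, SE 0.25, limma/voom FDR 6.13e-09), Sdsl, a relative of Sds (1.48), Cbs, cystathionine beta-synthase (1.39), and Gls2, the liver glutaminase (1.11). Gls2 was at -0.06 (FDR 0.712) at 100 nmol/kg of semaglutide, and at the matched dose it was 1.00 higher with BI 456906 (FDR 1.06e-06). Sds, Gls2, Got1 and Ddah1 are, like Ass1, genes that the study picked from these livers.

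Of 10 genes that supply aspartate or handle fumarate, 3 rose and 3 fell at 30 nmol/kg, near the shares of all genes tested. Got1, the cytosolic aspartate aminotransferase, rose by 2.10 (FDR 5.12e-08), Slc25a22, a mitochondrial glutamate carrier, by 1.67, and Fh1, fumarase, by 0.79, while the malate carrier gene Slc25a11 was at -0.43. Of 11 genes of arginine and ornithine use, 3 rose and 4 fell, also near those shares. Slc7a2, a carrier of cationic amino acids, rose by 2.68 (FDR 6.24e-14) at 30 nmol/kg of BI 456906 and by 1.44 at 100 nmol/kg of semaglutide, and Slc25a2, another mitochondrial ornithine carrier, by 0.91. Ddah1, which breaks down methylated arginines, was at -1.67, and Aldh18a1, which makes a precursor of ornithine and proline, at -0.75. Oat, ornithine aminotransferase, was named after its values were seen, as it went opposite ways: 0.52 (FDR 0.000877) at 30 nmol/kg of BI 456906 and -0.60 (FDR 0.000245) at 100 nmol/kg of semaglutide, and it was 1.22 higher with BI 456906 at the matched dose (FDR 6.83e-08).

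Of 12 genes of nitrogen transport, 8 were tested, of which 4 rose and 2 fell at 30 nmol/kg. Slc38a2, an amino acid transporter, rose by 2.26 and Slc1a2, a glutamate transporter of pericentral hepatocytes, by 1.03. Aqp8, a water channel that also passes ammonia, was at -4.03 (SE 0.44, FDR 8.48e-10) and at -1.89 at 100 nmol/kg of semaglutide, and Aqp9, a glycerol and urea channel, at -0.62. Of 13 genes that control the enzymes, 8 rose and 3 fell. Ppargc1a, a coactivator of fasting metabolism, rose by 1.92 and Hnf4a, a hepatocyte transcription factor, by 1.07, while Sirt5, the mitochondrial desuccinylase that acts on Cps1, was at -1.26 and Car5a, which supplies bicarbonate to Cps1, at -1.02.

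**Figure D4:**
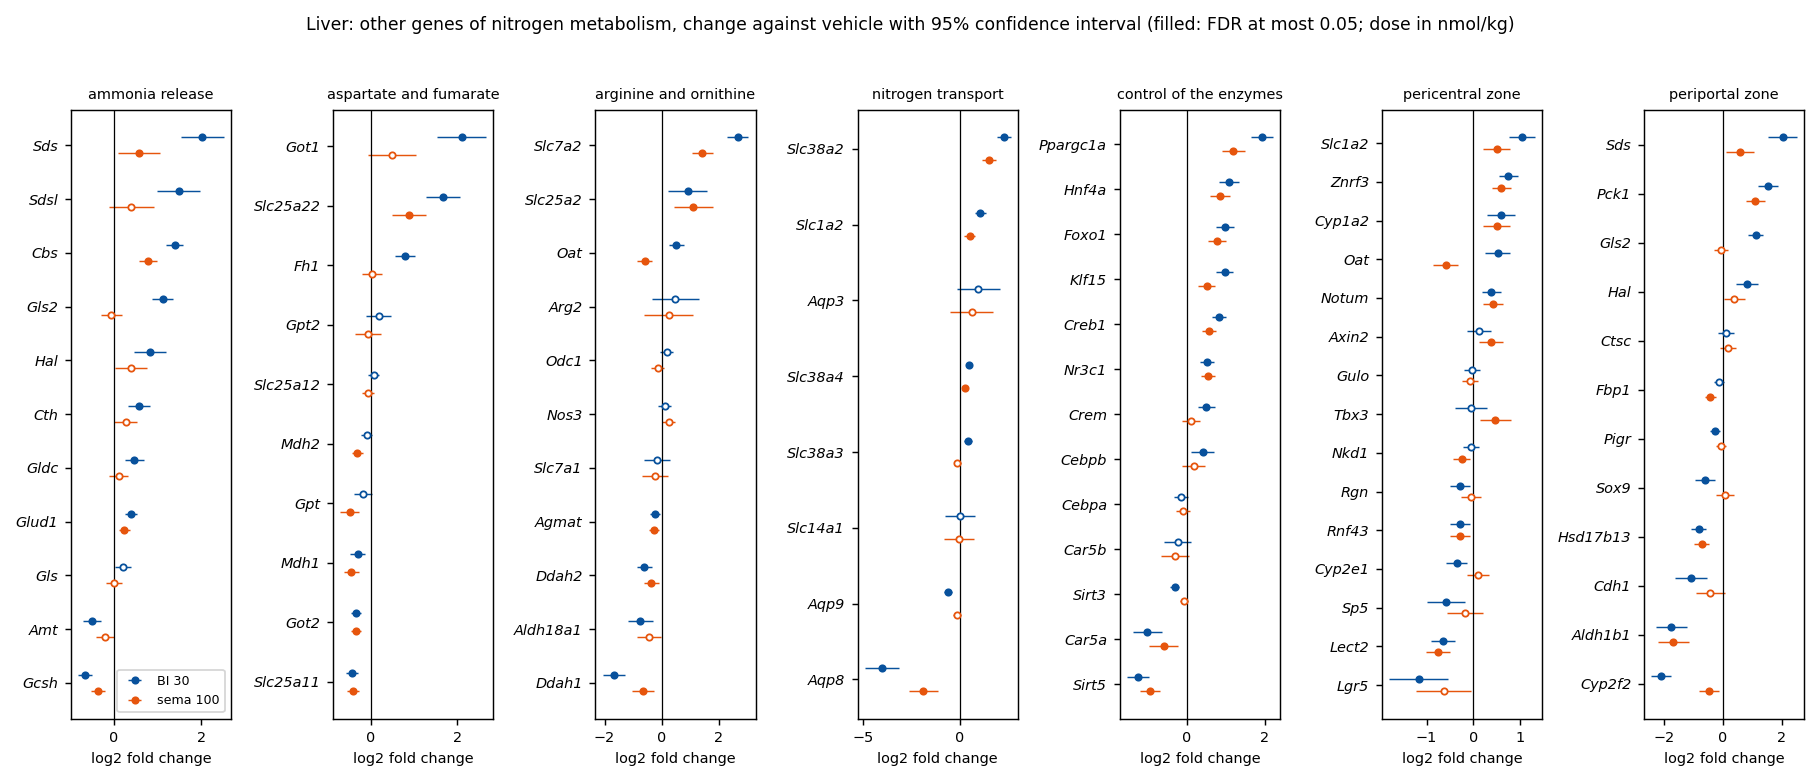
Log2 fold change against vehicle at 30 nmol/kg of BI 456906 (blue) and 100 nmol/kg of semaglutide (orange) for the tested genes of 7 lists that hold no member, with 95% confidence intervals and filled points for an FDR of at most 0.05. The genes are sorted by the blue values within each list, and Sds, the highest in the first and last panels at 2.03, is one of the genes that belong to 2 lists.

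Genes of the 2 liver zones moved in both directions. Beside the counts below, 28.9% of all genes tested passed as higher and 29.9% as lower. Of 15 other pericentral genes 5 rose and 6 fell at 30 nmol/kg of BI 456906, with a median of -0.05. Lgr5, a receptor that amplifies Wnt signals, was at -1.17, Lect2 at -0.65, Slc1a2 at 1.03 and Znrf3, which removes Wnt receptors, at 0.74. Glul and Rhbg, which mark the same zone, were -0.83 and -2.37 in these livers. Of 12 other periportal genes 4 rose and 6 fell, with a median of -0.20. Cyp2f2, a cytochrome P450, was at -2.10, Aldh1b1 at -1.74, Sds at 2.03 and Pck1, the enzyme that commits carbon to gluconeogenesis, at 1.52. The rise of Pck1 passed in limma/voom (FDR 1.04e-09). The study itself noted no significant change for gluconeogenic enzymes such as phosphoenolpyruvate carboxykinase, the product of Pck1, and the reason for the difference was not tested.

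Over the 42 liver libraries, the genes whose log2 level was most like a member's were found by Pearson's r, as a description, since all points share the group structure. For Ass1 these were its copy Gm5424 (r = 0.98), Gls2 (0.94) and Gnmt (0.92). For Cps1 they included Gfra1 (0.95) and Eprs (0.94), and for Slc25a15 Nnmt (0.95), Mat1a (0.94) and Got1 (0.93). Of these, Gls2, Gnmt, Nnmt and Got1 are, like Ass1, genes that the study picked from these livers. Asl and Arg1 were each among the 3 genes most like the other (0.93), with Sfxn2 (0.90) and Gldc (0.89) for Asl, and Mat1a (0.94) and Aass (0.94) for Arg1. For Glul the genes were Clec2h (0.87), Mief2 (0.85) and Ces2c (0.85), for Rhbg Ctsd (0.86), Eif4e3 (0.86) and Themis (0.85), for Otc Sardh (0.89), Hibadh (0.89) and Mccc1 (0.87), for Nags Gid8 (0.80), Mtfp1 (0.77) and Mpnd (0.74), and for Slc25a13 Aadat (0.80), Kmo (0.77) and Dars (0.73). Glul and Rhbg were not among the 3 genes most like each other.

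In epididymal white fat of mice on the same treatments, which has no complete urea cycle, 9 of the 10 genes were tested, all but Rhbg, and 5 passed at 30 nmol/kg of BI 456906 against vehicle, against 23.9% of 18536 genes tested there. Nags (-3.66), Arg1 (-2.53), Ass1 (-1.98) and Slc25a15 (-0.61) were lower, and Glul, which fat uses to make glutamine, was higher, by 0.72 (SE 0.19, FDR 0.00571). Glul was at 781 to 993 TPM for vehicle and 1203 to 1733 TPM at 30 nmol/kg, without overlap, the direction opposite to that in liver. In the same libraries the hepatocyte markers moved too, and their part in the changes of these 5 genes was not tested. The 6 hepatocyte markers summed to 17.9 to 5397 TPM in vehicle fat (median 1467) and to 19.5 to 941 TPM at 30 nmol/kg (median 100.5). Of the vehicle libraries 5 of 6 exceeded 500 TPM, and 1 of 6 did at 30 nmol/kg. Without the 12 fat libraries above 500 TPM, which leaves 1 vehicle library whose spread is assumed to be that of the others, 0 of 10 genes passed in limma/voom (1 at an unadjusted p under 0.05, Ass1 at -1.08; no other tool was run on these libraries), against 4.64% of 20129 genes, and Glul was at 0.55 (FDR 0.478).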

How the data were processed

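RNA from whole liver and epididymal fat was sequenced, and 42 libraries per tissue, 6 in each of 7 groups, were analysed. The authors aligned the reads to mouse (per the submitters' processing notes: FastQC 0.11.5, STAR 2.5.2b, RSEM 1.3.0, featureCounts 1.5.1, builds GRCm38 and mm10, with no roles given) and deposited 2 tables per library. In one, the deposited signal is a gene count multiplied by a factor particular to the library; dividing by that step (0.827 to 1.99 in liver) gave whole reads for nearly all values (tolerance 0.01), and the reads give the depth. The other holds TPM computed by the authors, which were used for levels. TPM carries no depth of its own.

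The signal values were scaled by TMM, filtered by filterByExpr and tested in limma/voom (limma 3.58.1, edgeR 4.0.16, R 4.3.3) with 7 group means per tissue, and the false discovery rate was adjusted over all genes tested, 15964 in liver. The reads were tested by edgeR and DESeq2 1.42.0 as alternatives. Confidence intervals are at 95%. The limma code was tested on simulated data.

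Groups come from the sample labels. The semaglutide samples bear a code in their titles, and their treatment label names semaglutide. The members and the gene lists were chosen with earlier results of these data known. All 10 members are named; from each other list at most the 4 genes with the largest change at 30 nmol/kg of BI 456906 among those that passed; and the 3 genes most like each member, of which 1 is not reported here. Alternatives were another scaling, other filters, other tools, log2(TPM + 1) and log2(TPM + 0.1), sample quality weights, a fold threshold, fits of 2 groups, and leaving out each library in turn. Gene positions are from GENCODE on GRCm38.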

Additional observations from a re-analysis of the deposited data

Results flagged for a closer look

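In each group of 6 libraries, the library farthest out was compared with the rest by its gap to the nearest one over the whole range (Dixon's test). Of 70 groups of liver values of the 10 genes, 4 held such a library, and chance alone would give 3.5 (1 in 20). Cps1 was at 1396 TPM in library 51 of BI 456906 3 nmol/kg. Ass1 was at 4678 TPM in library 56 of BI 456906 10 nmol/kg and at 3340 TPM in library 76 of semaglutide 20 nmol/kg. Slc25a15 was at 156.9 TPM in the same library 76. All 4 were the highest of their group.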

How the results depend on the processing

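No paired analysis was possible because the library numbers differ in every group. Values of single genes were set against the main fit in 4 comparisons, with the fold threshold and left-out libraries aside. These were 30 nmol/kg of BI 456906 and 100 nmol/kg of semaglutide against vehicle, the 2 compounds at 20 nmol/kg, and the slope. Of these 400 values 372 stayed on the same side of the threshold, 21 no longer passed and 7 newly passed. Where either fit passed, 0 changed direction, and changes of direction between fits that did not pass were not counted. Counts of the 10 genes that passed moved by over 1.5 times as follows. Where they were counted, all genes that passed moved in number as well, so the moves do not describe the 10 genes alone. At 3 nmol/kg of BI 456906 (2), log2(TPM + 1) gave 4, quality weights 5, the fold threshold 0 and the 2 groups alone 0. At 10 nmol/kg (5), quality weights gave 8 and the fold threshold 1. The fold threshold gave 3 at 20 nmol/kg (7) and 4 at 30 nmol/kg (9). For semaglutide 20 nmol/kg (2), log2(TPM + 1) gave 4, log2(TPM + 0.1) 4, quality weights 6, the fold threshold 1 and the 2 groups alone 4. For semaglutide 100 nmol/kg (5), no filter gave 2, the fold threshold 2 and the 2 groups alone 3, and smaller moves were to 6 with DESeq2 and with quality weights and to 4 on both TPM scales and with library size alone. Between compounds, the fold threshold gave 0 at 20 nmol/kg (3), 1 for 30 against 100 nmol/kg (5) and 1 for 30 against 20 nmol/kg (5). Between 30 and 20 nmol/kg of BI 456906 (0), quality weights gave 2 and the 2 groups alone 2. In fat (5), quality weights gave 9 and the fold threshold 3. The fold threshold is the stricter call, and the cause of the other moves was not tested. The fits of 2 groups hold fewer libraries, and their counts moved in both directions. Leaving out 1 library gave 1 to 5 at 3 nmol/kg of BI 456906, 5 to 7 at 10, 6 to 8 at 20 and 8 to 9 at 30 nmol/kg, 2 to 3 and 2 to 5 at 20 and 100 nmol/kg of semaglutide, 3 to 3 between compounds at 20 nmol/kg, 4 to 5 for 30 against 100 nmol/kg, 5 to 5 for 30 against 20 nmol/kg, 0 to 1 between 30 and 20 nmol/kg of BI 456906 and 8 to 9 for the slope. With library size alone, the median of all genes at 30 nmol/kg was -0.10, with 4018 higher and 5410 lower (4612 and 4772 with TMM). With quality weights 5102 of all genes were higher and 5515 lower at that dose. Between the compounds at 20 nmol/kg, 351 were higher and 502 lower with quality weights, against 145 and 241 in the main fit. At 100 nmol/kg of semaglutide, 3836 genes were higher and 3851 lower, against 4046 and 2565 with log2(TPM + 1) and 4120 and 2532 with log2(TPM + 0.1). Rhbg, with 19 to 36 reads per library at 30 nmol/kg, is the gene whose value depth limits most.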

Other observations

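The libraries that stood out for 1 gene also stood high for others. Libraries 51 (BI 456906 3 nmol/kg), 56 (BI 456906 10 nmol/kg) and 76 (semaglutide 20 nmol/kg) were each the highest of their group of 6 for 7 of the 10 genes. Library 51 was also the lowest of its group for Rhbg. At the other end, library 45 of vehicle and library 49 of BI 456906 3 nmol/kg were each the lowest for 7 genes. The hepatocyte markers summed to 82781 TPM in library 51, 86992 TPM in library 56 and 76295 TPM in library 76. Their depths were 53869104, 41439159 and 44367319 reads.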
